A study of Mus musculus with 5 samples.

Results

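The lipoprotein lipase system and the genes of lipid uptake were examined in mammary glands of mice taken within 12 hours of giving birth. The set was chosen by gene symbol and holds 10 of the 22609 genes in the table: Lpl, its partners Lmf1 and Gpihbp1, the angiopoietin-like genes Angptl4 and Angptl2, the apolipoprotein genes Apoc2, Apoc1 and Apoe, and the receptor genes Vldlr and Cd36. Expression was measured by poly(A) RNA sequencing in glands labelled Nfib-null (KO) (3 libraries) and wild type (2 libraries). All animals were outbred, and lymph nodes had been removed from the tissue. Nfib encodes nuclear factor I/B, a transcription factor, and the series asks how far pregnancy-induced expression in the gland depends on it and on STAT5, which carries the prolactin signal.

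Lipoprotein lipase is a secreted enzyme that splits the triglyceride of circulating chylomicrons and very low density lipoproteins. It matures in the endoplasmic reticulum, is carried to the inner face of capillaries, and there releases fatty acids that nearby cells take up. Around birth and in lactation the mammary gland is a major site of this uptake, and the fatty acids taken up join those made in the alveolar cell to form milk fat. Fat cells in the same tissue use the same enzyme to fill their own stores.

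The table gives 1 RPKM value (reads per gene, corrected for its length and for the mapped reads of the library) per gene for each group, a mean over libraries. No difference below therefore has a replicate check, a standard deviation or a p-value, and each is described by its size. The wild-type column carries the name of the wild-type titles. The column NfibFF-WC, whose name the labels do not spell out, was taken as the Nfib-null one because it is the only one left, and the labels do not say in which cells the gene was deleted. Nfib itself stood at 55.3 RPKM in Nfib-null glands, against 33.7 RPKM in wild-type glands (log2 difference 0.30 after scaling), so its level does not check that reading of the columns. Nfib-null glands below stands for that column. From the value of 1 read, depths of about 27200000, 32800000 and 22900000 reads were estimated for the Nfib-null libraries and of about 14900000 and 17700000 for the wild-type libraries, the third Nfib-null depth resting on few genes.

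In Nfib-null glands 3 genes of the system stood at least 2-fold higher and none stood at least 2-fold lower. Angptl4, Apoe and Angptl2 were the higher ones, while Lpl, Lmf1, Gpihbp1, Apoc1, Vldlr and Cd36 lay within 2-fold. These counts are over the 9 genes whose mean reached 1 RPKM, and Apoc2 lay just below that minimum at 0.991 RPKM. Log2 differences are Nfib-null minus wild type, taken after the columns had been set to a median log2 ratio of 0 and 1 RPKM had been added, which understates the difference of low genes. Among all 12511 genes above the minimum, 6.95% were at least 2-fold higher and 5.97% at least 2-fold lower. The median of the 9 genes was 0.04, beside 0 for all genes.

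The order of the levels, which are per length and can be compared between genes of a column, differed at the top. Apoe was the most abundant of the 10 genes in the Nfib-null column, followed by Lpl, Cd36 and Angptl4. In the wild-type column Lpl came first, then Cd36, Apoe and Gpihbp1, and Angptl4 was the seventh. Vldlr and Apoc2 were the lowest in both columns.

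**Figure D1:**
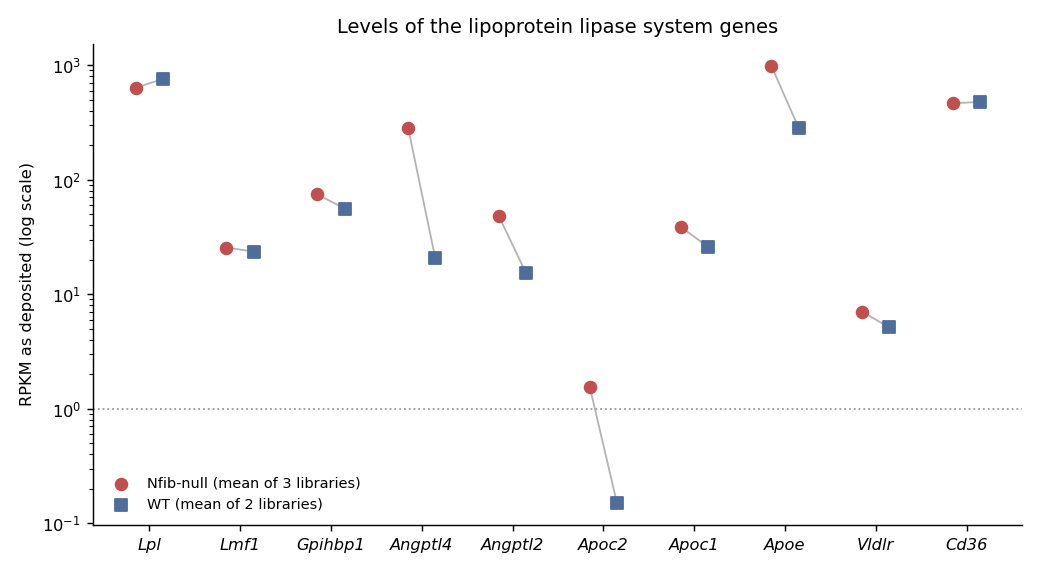
RPKM as deposited (log axis) of the 10 genes in the Nfib-null column (circles, mean of 3 libraries) and the wild-type column (squares, mean of 2 libraries), with the minimum of 1 RPKM dotted. Angptl4 stood at 284 RPKM in Nfib-null against 20.5 RPKM in wild-type glands, whereas Cd36 stood at 465 RPKM in Nfib-null against 477 RPKM in wild-type glands; no error bars can be drawn because each point is a group mean.

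Lpl, the lipase itself, stood at 636 RPKM in Nfib-null glands, against 756 RPKM in wild-type glands. Its log2 difference was −0.66, and 12.4% of the genes kept had a lower one. In both columns it was among the abundant mRNAs of the gland, the 89th highest of the genes kept in the Nfib-null column and the 55th in the wild-type column. Lmf1, the endoplasmic reticulum protein that lipases need to fold into their active form, stood at 25.5 RPKM in Nfib-null glands, against 23.5 RPKM in wild-type glands (−0.28). Gpihbp1, the anchored protein of capillary endothelium that carries the lipase to the vessel lumen and holds it there, stood at 74.4 RPKM in Nfib-null glands, against 56.0 RPKM in wild-type glands. After scaling its difference was 0.00. None of the 3 genes that make, fold and place the enzyme differed by 2-fold.

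Angptl4 differed most. It encodes a secreted inhibitor that unfolds lipoprotein lipase and is induced in fat and other tissues by fasting and by the lipid-sensing PPAR receptors. It stood at 284 RPKM in Nfib-null glands, against 20.5 RPKM in wild-type glands, a ratio of 13.8 as deposited and a log2 difference of 3.33. Of the genes kept, 3 had a larger difference. By level it was the 192nd of these genes in the Nfib-null column and the 2894th in the wild-type column, and such a rank does not depend on how the columns are scaled.

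Angptl2, a secreted relative that is known as an inflammatory mediator made by fat cells, stood at 47.9 RPKM in Nfib-null glands, against 15.2 RPKM in wild-type glands (1.20). Angptl1, a further relative singled out once its value was known, stood at 1.11 RPKM in Nfib-null against 0.146 RPKM in wild-type glands, with a mean under the minimum. In the list of angiopoietins and their relatives 2 of 7 genes were above the minimum. Angpt1, an angiopoietin that steadies vessels, was lower at 27.1 RPKM in Nfib-null against 50.2 RPKM in wild-type glands (−1.27), and Angpt2 lay within 2-fold (0.44).

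Of the apolipoprotein genes, Apoe was the abundant one. Its product is the ligand by which lipoprotein remnants bind to receptors, and macrophages and fat cells make it outside the liver. It stood at 987 RPKM in Nfib-null glands, against 284 RPKM in wild-type glands, a ratio of 3.47 as deposited and a log2 difference of 1.38. By level it was the 33rd of the genes kept in the Nfib-null column and the 179th in the wild type. Apoc1, an apolipoprotein that inhibits the lipase and the binding of remnants, stood at 38.8 RPKM in Nfib-null glands, against 26.0 RPKM in wild-type glands (0.16).

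Apoc2, the cofactor without which the lipase is inactive, was close to the limit of detection in the wild-type column. It stood at 1.55 RPKM in Nfib-null glands, against 0.150 RPKM in wild-type glands. With the shortest annotated transcript these levels correspond to about 73 reads over the Nfib-null group and about 3 over the wild type. The ratio of 10.4 then has a 95% interval of 3.15 to 47.5, by the exact binomial method, which covers counting error alone. In the annotation used here the gene also shares exons with another gene of the same strand, Gm44805. That gene has no value in either column, and how reads of the shared exons were counted is not known.

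Apoe, Apoc1, Apoc4 and Apoc2 lie in this order in a cluster on chromosome 7, with Tomm40 next to Apoe and Clptm1 beyond Apoc2. The neighbours did not share a difference. Apoc4 was near 0 at 0.0846 RPKM in Nfib-null glands, against 0.0719 RPKM in wild-type glands. Clptm1 stood at 32.5 RPKM in Nfib-null against 32.9 RPKM in wild-type glands (−0.42), and Tomm40 at 23.6 RPKM in Nfib-null against 34.3 RPKM in wild-type glands (−0.92). Within the cluster the ratio of Apoc1 to Apoe was 0.0393 in the Nfib-null column and 0.0915 in the wild type.

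Both receptor genes lay within 2-fold. Cd36 encodes the scavenger receptor through which fat cells, capillary endothelium and macrophages take up long-chain fatty acids, and its product is also a major protein of the milk fat globule membrane. It stood at 465 RPKM in Nfib-null glands, against 477 RPKM in wild-type glands (−0.45). Vldlr, the receptor that binds triglyceride-rich lipoproteins carrying apolipoprotein E, stood at 7.01 RPKM in Nfib-null glands, against 5.12 RPKM in wild-type glands (0.04). The ratio of Apoe to Vldlr was 141 in the Nfib-null column and 55.5 in the wild type. If the shortest transcript of each gene is assumed, Vldlr was the least sampled of the 9 genes above the minimum. It then had about 263 reads over the Nfib-null group and 76 over the wild type. That order depends on the transcript taken, since those of Vldlr run from 454 to 7971 bases and those of Apoc1 from 271 to 532.

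The sequences from 250 bases before to 50 after the annotated start are shown for Angptl2 and Apoe, both higher by 2-fold or more in Nfib-null glands, for Apoc2, and for Cd36 as an abundant gene within 2-fold. They are RefSeq's, of build GRCm38.p6, which is not the submitters' build, and were matched by symbol. Capitals mark the core of the nuclear factor I site (TTGGC on either strand) in Angptl2, Apoe and Cd36, and a direct repeat in Apoc2.
Angptl2, chr2:33215711-33216010, plus strand: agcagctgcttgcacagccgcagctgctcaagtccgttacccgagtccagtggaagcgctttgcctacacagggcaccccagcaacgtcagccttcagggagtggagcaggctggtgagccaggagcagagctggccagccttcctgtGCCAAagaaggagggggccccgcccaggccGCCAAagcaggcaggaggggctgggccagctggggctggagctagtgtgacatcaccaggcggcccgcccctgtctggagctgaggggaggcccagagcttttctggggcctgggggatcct
Apoe, chr7:19699139-19699438, minus strand: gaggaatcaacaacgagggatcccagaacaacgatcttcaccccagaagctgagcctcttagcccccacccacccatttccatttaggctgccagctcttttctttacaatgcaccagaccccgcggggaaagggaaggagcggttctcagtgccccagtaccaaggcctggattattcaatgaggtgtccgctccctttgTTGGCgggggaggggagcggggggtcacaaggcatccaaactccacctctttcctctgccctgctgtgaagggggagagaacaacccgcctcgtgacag
Apoc2, chr7:19677892-19678191, minus strand: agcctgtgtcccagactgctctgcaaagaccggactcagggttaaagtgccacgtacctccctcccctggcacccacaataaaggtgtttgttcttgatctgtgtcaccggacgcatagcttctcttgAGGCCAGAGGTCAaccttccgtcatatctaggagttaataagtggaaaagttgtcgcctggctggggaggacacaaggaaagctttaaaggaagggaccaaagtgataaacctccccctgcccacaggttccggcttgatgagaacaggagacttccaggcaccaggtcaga
Cd36, chr5:17835847-17836146, minus strand: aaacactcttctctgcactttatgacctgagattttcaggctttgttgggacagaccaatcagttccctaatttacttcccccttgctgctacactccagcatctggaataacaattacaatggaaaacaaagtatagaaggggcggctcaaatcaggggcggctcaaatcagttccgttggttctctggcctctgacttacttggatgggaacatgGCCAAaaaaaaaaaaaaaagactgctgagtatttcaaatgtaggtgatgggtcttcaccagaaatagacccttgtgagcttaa

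Of the 10 genes 6 had such windows, 9 in all, since Apoe has 3 and Vldlr 2; no window was given for Lpl, Gpihbp1, Angptl4 or Apoc1. The core TTGGC was found on either strand in 6 of the 9 windows, and in 46.7% of all 32851 windows in the table. In the Angptl2 window it lay 102 and 72 bases before the start, in that of Apoe 49 bases before and in that of Cd36 33 bases before. The whole palindrome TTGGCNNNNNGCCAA, in which N is any base, was in none of the 9 and in 0.0365% of all windows. The STAT motif TTCNNNGAA was in none of the 9 and in 8.30% of all. A direct repeat of the kind bound by PPAR receptors (AGGNCANAGGNCA) was in 1 of the 9, that of Apoc2, 122 bases before the start, and in 0.381% of all windows. The letters TATAAA were in 1 window, an alternative start of Apoe, and in 13.6% of all. Both strands were searched for every motif, no match overlapped a match of another motif, and a match describes letters and not a bound site.

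Ratios between genes of a column do not depend on scaling by a factor. Relative to Lpl, each of the other 9 genes stood higher in the Nfib-null column, by 1.16 times for Cd36 to 16.5 times for Angptl4. There were 0.447 units of Angptl4 RPKM per unit of Lpl RPKM in the Nfib-null column and 0.0271 in the wild type. For Apoe the ratio to Lpl was 1.55 in the Nfib-null column and 0.376 in the wild type, a 4.13-fold difference, and for Angptl2 it was 0.0753 in the Nfib-null column and 0.0201 in the wild type (3.74-fold).

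The ratio of Gpihbp1 to Lpl was 0.117 in the Nfib-null column and 0.0741 in the wild type, a 1.58-fold difference. That of Lmf1 differed 1.29-fold, that of Vldlr 1.63-fold and that of Apoc1 1.77-fold. These 4 and Cd36 differed from Lpl by less than 2-fold. Angptl4 also stood apart from the carrier, with 3.82 units per unit of Gpihbp1 in the Nfib-null column and 0.367 in the wild type (10.4-fold). All ratios to Lpl share its value, so they are not separate observations.

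**Figure D2:**
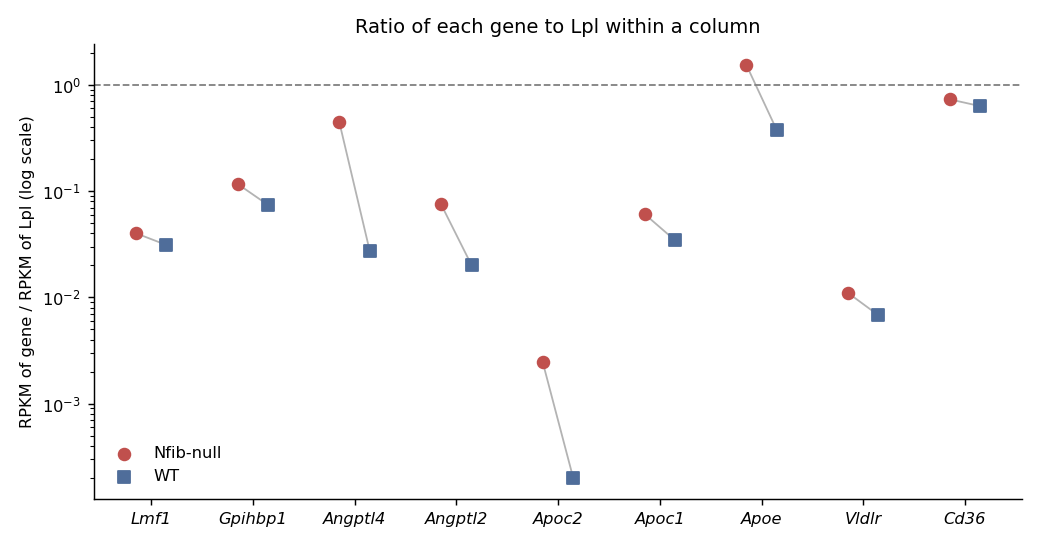
RPKM of each gene divided by RPKM of Lpl in the same column (log axis), for the Nfib-null column (circles) and the wild-type column (squares), with equality to Lpl dashed. Apoe crossed that line, at 1.55 in the Nfib-null column and 0.376 in the wild type, and Angptl4 differed most, at 0.447 in the Nfib-null column and 0.0271 in the wild type.

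The tissue was whole gland, and the genes of the system are expressed in several of its cell types. Fewer cells of a type and less RNA per cell cannot be told apart in such samples. Of 16 adipocyte markers 15 were higher by 2-fold or more in Nfib-null glands and none lower (median 1.82), with a summed level of 10789 RPKM in Nfib-null against 2227 RPKM in wild-type glands. Of 17 macrophage markers 14 were higher and none lower (median 1.25), with 1606 RPKM in Nfib-null against 370.0 RPKM in wild-type glands, and of 11 fibroblast markers 9 were higher and none lower (median 1.54), with 1789 RPKM in Nfib-null against 485 RPKM in wild-type glands. These sums, like those below, are of RPKM as deposited, in which the median log2 ratio of all genes kept was 0.41. Single genes weigh heavily in them. Fabp4 gave 5819 RPKM of the adipocyte sum in Nfib-null and 1183 RPKM in wild-type glands. Cd14 gave 639 RPKM of the macrophage sum in Nfib-null and 74.2 RPKM in wild-type glands. Endothelial markers differed little, with 0 of 20 higher and 1, Car4, lower (median −0.02), and 486 RPKM in Nfib-null against 356 RPKM in wild-type glands in sum.

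Epithelial markers also differed less. Of 18 luminal markers 4 were higher and 1 lower (median 0.57; 2745 RPKM in Nfib-null glands, against 2202 RPKM in wild-type glands), and of 10 basal markers none differed by 2-fold (median 0.15; 1342 RPKM in Nfib-null against 852 RPKM in wild-type glands). Milk protein genes, in contrast, were lower, 10 of 11 by at least 2-fold (median −2.36). They summed to 146324 RPKM in Nfib-null against 589213 RPKM in wild-type glands. All genes of the table summed to 548491 RPKM in Nfib-null against 947746 RPKM in wild-type glands. Of 4 skeletal muscle markers above the minimum 1, Acta1, was higher and 2 low ones were lower. Ckm stood at 0.208 RPKM in Nfib-null against 2.63 RPKM in wild-type glands, and reached the minimum through its wild-type value. Tnni2 stood at 1.03 RPKM in Nfib-null against 2.93 RPKM in wild-type glands. All 7 muscle markers listed summed to 34.7 RPKM in Nfib-null against 15.3 RPKM in wild-type glands. Of this Acta1 gave 31.9 RPKM in Nfib-null against 4.11 RPKM in wild-type glands. No marker of these lists was listed at 0 in either column.

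Set beside these lists, Angptl4 (3.33) had a larger difference than each of the 16 adipocyte and 17 macrophage markers, of which the largest were Cidec (2.43) and Cd14 (2.68). Apoe (1.38) lay within the macrophage range, above 13 of its 17 markers, and above 4 of the 16 adipocyte markers. Angptl2 (1.20) lay above 7 of the macrophage and 2 of the adipocyte markers. Lpl (−0.66) and Cd36 (−0.45), which fat cells express strongly, lay below every adipocyte and every macrophage marker. Gpihbp1 (0.00) lay amid the endothelial markers, above 11 of the 20. How far the make-up of the tissue bears on the values of single genes was not tested.

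**Figure D3:**
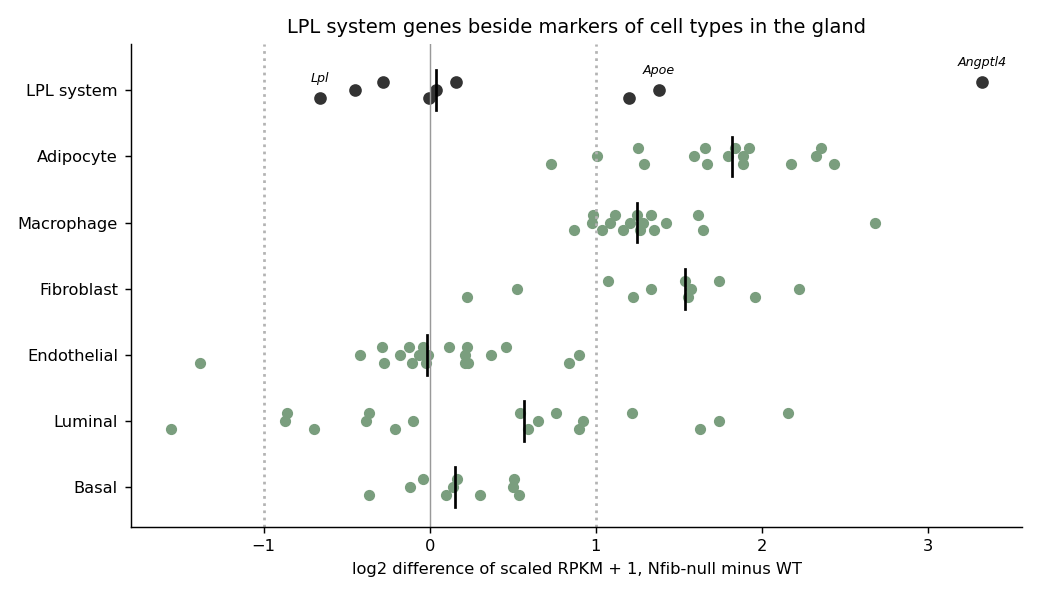
Log2 differences, Nfib-null minus wild type, of the 9 genes of the lipoprotein lipase system above the minimum (top row) and of markers of 6 cell types; each point is a gene, black bars are medians and dotted lines mark 2-fold. Angptl4 (3.33) lies to the right of all markers shown, and Lpl (−0.66) to the left of all adipocyte, macrophage and fibroblast markers.

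Other genes of lipoprotein handling are given by list, and of all genes above the minimum 6.95% were higher and 5.97% lower. In the list for lipase processing, which also holds other lipases, 1 of 15 was higher and 2 were lower (median −0.17). The higher one was Lipe, the hormone-sensitive lipase of fat cells, also an adipocyte marker, at 164 RPKM in Nfib-null glands, against 33.9 RPKM in wild-type glands (1.84). The lower ones were Lipg, endothelial lipase, at 1.65 RPKM in Nfib-null against 7.42 RPKM in wild-type glands (−1.98), and Lman1, a cargo receptor between endoplasmic reticulum and Golgi, at 42.1 RPKM in Nfib-null against 89.7 RPKM in wild-type glands (−1.48). Sel1l, which lipoprotein lipase needs to leave the endoplasmic reticulum and which is given outside the rule for named genes, stood at 31.5 RPKM in Nfib-null against 39.2 RPKM in wild-type glands (−0.71). Lipa, the lysosomal lipase, stood at 397 RPKM in Nfib-null against 175 RPKM in wild-type glands (0.77).

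Of 17 apolipoprotein and lipid transfer genes 7 were above the minimum, of which 4 were higher and 1 lower (median 1.12). Apod, a lipocalin unrelated to the other apolipoproteins, stood at 609 RPKM in Nfib-null glands, against 71.6 RPKM in wild-type glands (2.66). Pltp, the phospholipid transfer protein, stood at 53.2 RPKM in Nfib-null against 11.6 RPKM in wild-type glands (1.71), and Abca1, which exports cholesterol to apolipoproteins, at 19.7 RPKM in Nfib-null against 4.22 RPKM in wild-type glands (1.62). The fourth higher gene, singled out once its value was known, was Abcg1 (1.12). Clu, or clusterin, was the lower gene, at 459 RPKM in Nfib-null against 803 RPKM in wild-type glands (−1.22). Apoa4 and Apoa5, apolipoproteins of gut and liver, were listed at 0 in both columns.

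Among the receptors 2 of 14 were lower and 1 was higher (median 0.31), beside 5.97% lower and 6.95% higher of all genes. Lrp8, the family member closest to Vldlr, was a lower one at 2.12 RPKM in Nfib-null against 8.13 RPKM in wild-type glands (−1.87). Lrp1, a receptor for remnants, was the higher one at 34.0 RPKM in Nfib-null against 11.8 RPKM in wild-type glands (1.06), and was no longer 2-fold higher with a pseudocount of 5 or with scaling to luminal or adipocyte markers. Scarb1, the high density lipoprotein receptor, stood at 78.0 RPKM in Nfib-null against 83.3 RPKM in wild-type glands (−0.50). Vldlr, at 0.04, lay between Lrp8 and Lrp1.

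Downstream of uptake, 2 of 15 fatty acid transport and activation genes were higher and 3 lower (median −0.33). The shares over all genes were 6.95% higher and 5.97% lower. The higher ones were Slc27a1, a fatty acid transporter of fat and muscle, at 213 RPKM in Nfib-null glands, against 26.1 RPKM in wild-type glands (2.58), and Fabp4, the fatty acid binding protein of fat cells and an adipocyte marker, at 5819 RPKM in Nfib-null against 1183 RPKM in wild-type glands (1.89). Fabp3, the binding protein of heart and of lactating mammary epithelium, was lower at 414 RPKM in Nfib-null against 4261 RPKM in wild-type glands (−3.77). Acsl1, which activates fatty acids, stood at 343 RPKM in Nfib-null against 645 RPKM in wild-type glands (−1.32), and Slc27a4, singled out in the same way, at 17.5 RPKM in Nfib-null against 28.5 RPKM in wild-type glands (−1.07). With values as deposited 4 of the 15 were higher and 1 was lower.

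The list for fatty acid synthesis within the cell, which also holds regulators of it and genes of glyceride assembly, was mostly lower in the Nfib-null column. Of its 20 genes 17 were lower by 2-fold or more and none higher (median −1.85). Scd2, a desaturase, stood at 35.9 RPKM in Nfib-null against 207 RPKM in wild-type glands (−2.90), Slc25a1, which exports citrate from mitochondria for this synthesis, at 107 RPKM in Nfib-null against 521 RPKM in wild-type glands (−2.69), and Scd1 at 2178 RPKM in Nfib-null against 4056 RPKM in wild-type glands (−1.31). Lpl at −0.66 and Cd36 at −0.45 lay between the medians of these genes and of the adipocyte markers.

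In a list of genes known, like Angptl4, as targets of PPAR receptors, 11 of 13 were higher and none lower (median 1.54). The list leaves out the 10 genes of the system, among them Angptl4 (3.33), Lpl (−0.66) and Cd36 (−0.45). It holds only some of the known targets, so its counts do not describe such targets as a whole. Pdk4, which turns off glucose oxidation, stood at 134 RPKM in Nfib-null glands, against 6.87 RPKM in wild-type glands (3.72). Ucp3, a mitochondrial carrier of muscle and brown fat, stood at 60.9 RPKM in Nfib-null against 6.99 RPKM in wild-type glands (2.57), and Cpt1a, the gate of mitochondrial fatty acid oxidation, at 40.5 RPKM in Nfib-null against 5.78 RPKM in wild-type glands (2.24). Plin2, the lipid droplet coat of milk-secreting cells, stood at 931 RPKM in Nfib-null against 592 RPKM in wild-type glands (0.24). Cidec stands in this list and among the adipocyte markers, and the list's higher members numbered 6 with scaling to luminal markers and 1 with scaling to adipocyte markers.

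**Figure D4:**
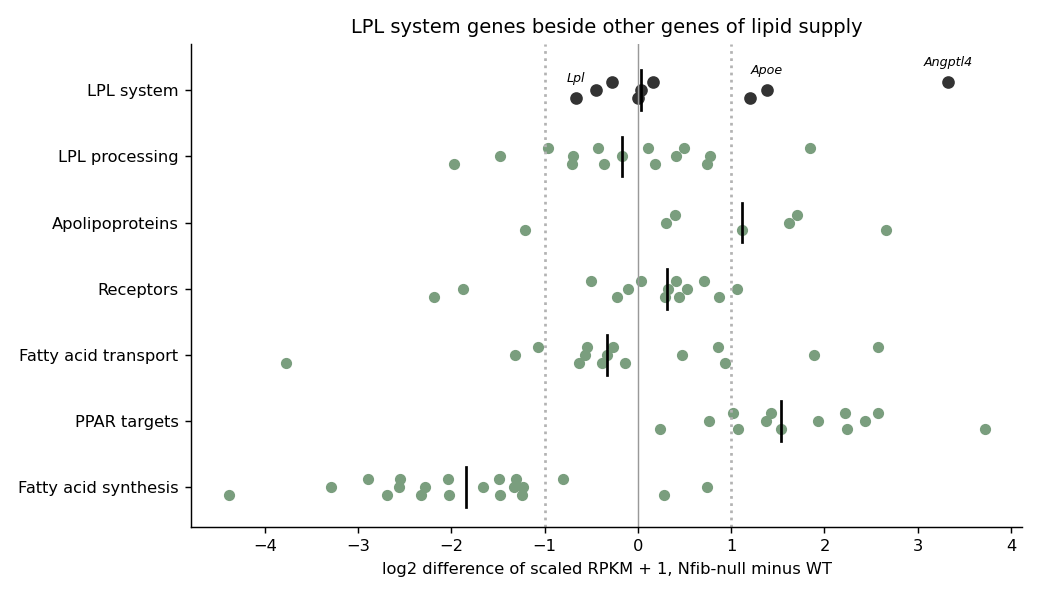
Log2 differences, Nfib-null minus wild type, of the 9 genes of the lipoprotein lipase system above the minimum (top row) and of 6 lists of related genes; each point is a gene, black bars are medians and dotted lines mark 2-fold. The median was 1.54 for PPAR targets and −1.85 for fatty acid synthesis, and 0.04 for the lipoprotein lipase system.

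How the columns are scaled decides the sign of the smallest differences, so that Gpihbp1 stood at 0.40 and Lmf1 at 0.11 with values as deposited. Quantile normalization, equal sums without the 20 most abundant genes, endothelial markers and the values as deposited left the same 3 genes at least 2-fold higher, with Angptl4 between 3.34 and 3.73, Apoe between 1.40 and 1.79 and Angptl2 between 1.21 and 1.59. Lpl was lower under each of these, between −0.64 and −0.25. Scaled to luminal markers, Lpl (−1.23) and Cd36 (−1.02) were at least 2-fold lower, and Apoe (0.81) and Angptl2 (0.65) came within 2-fold. Scaled to adipocyte markers, Lpl stood at −2.53, Cd36 at −2.32, Lmf1 at −2.08 and Gpihbp1 at −1.85, while Apoe (−0.49) and Angptl2 (−0.61) changed sign. Angptl4 remained at least 2-fold higher under both, at 2.76 and 1.48.

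**Figure D5:**
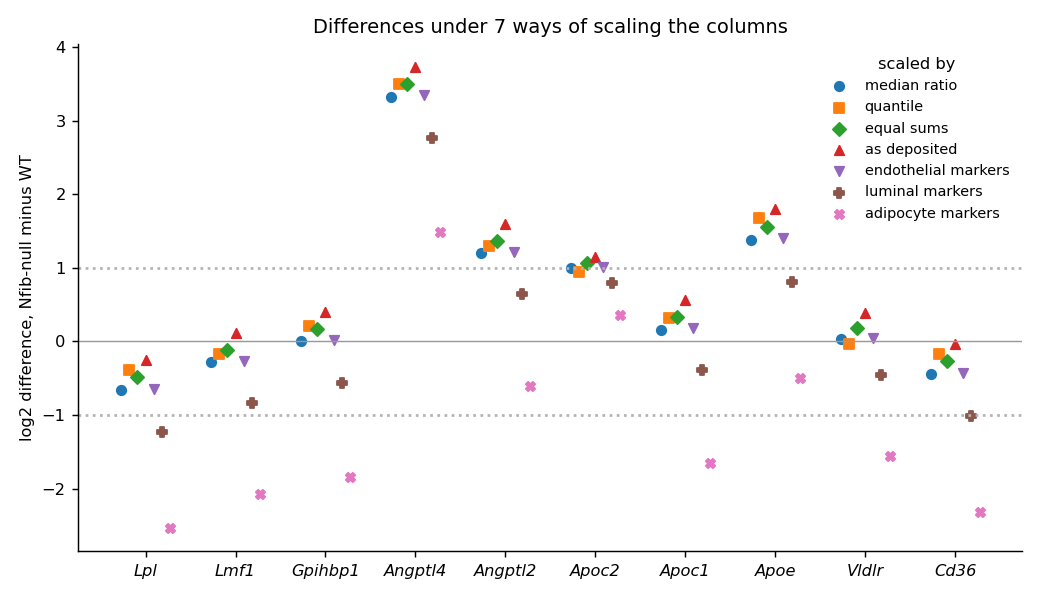
Log2 differences, Nfib-null minus wild type, of the 10 genes under 7 ways of scaling the columns (symbols); dotted lines mark 2-fold. Angptl4 lies above the upper line under all 7, from 1.48 with adipocyte markers to 3.73 as deposited, and Lpl lies below 0 under all 7, from −2.53 to −0.25.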

How the data were processed

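The values were deposited by the authors as RPKM, per the file headers, with 1 column per group. In the Nfib-null column 84.4% of the values with 10 decimals end in repeating digits, as a mean of 3 values gives. The tools CASAVA and TopHat and the build mm9 are listed, per the submitters' processing notes. Versions, the counter, its annotation and strand setting, and any normalization between libraries are not given in the sources used for this work.

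Genes averaging 1 RPKM or more over the 5 libraries (12511 of 22609) were kept. Median-ratio factors (1.15 for Nfib-null and 0.867 for wild type) scaled the columns, and differences of log2(RPKM + 1) were taken, Nfib-null minus wild type. RPKM in the text are as deposited. The 2-fold limit replaces a test: limma, planned for values per library, could not be run on group means. Wap and Glycam1 hold the same wild-type value (102755 RPKM), as a rank-based normalization could give, though none is stated; none of the 10 genes shared its value with another gene of its column. Depth was estimated from low values of genes with a single GENCODE M21 transcript, with as many steps sought as libraries and a tolerance of 1%, and is approximate. The reads of a gene were computed from its shortest transcript. The search for steps began at a higher depth for the Nfib-null libraries than for the wild type. Were the values normalized by rank, the depths, the reads of a gene and the Apoc2 interval would not hold. Median-ratio scaling and the 2-fold limit were tried on simulated columns with fewer changed genes than here, as many up as down. That trial cannot tell which scaling suits these columns.

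The 10 genes and the 15 lists (230 entries) were chosen with earlier results of these data known. Named were all 10 genes and, per list, the 4 of largest difference and the 2 of highest mean, from which the few that bear on lipid supply are given; exceptions are marked, and some genes of the lists are not reported here. Macrophage, lipase processing and PPAR lists each lack 1 symbol in the table. Python 3.11.15, NumPy 2.4.6, pandas 2.3.3, SciPy 1.17.1 and matplotlib 3.10.9 were used.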

Additional observations from a re-analysis of the deposited data

How the results depend on the processing

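Scaling to adipocyte markers shifted the median of all genes by −1.61, luminal markers by −0.49, and it moved by 0.35 with values as deposited and 0.15 with equal sums, and by less than 0.02 in size otherwise. Genes of the system at least 2-fold higher numbered 1 and lower 6 with adipocyte markers (of all genes 23 and 9927), and 1 and 2 with luminal markers (292 and 2337), against 3 and 0. A limit of 4-fold left 1 higher, and a limit of 1.5-fold gave 1 lower. Over all genes the counts were 1800 higher and 369 lower as deposited, against 869 and 747; 1313 were higher with a pseudocount of 0.1, 346 higher and 444 lower with 5, 2145 and 1833 at 1.5-fold, and 91 and 154 at 4-fold. With adipocyte markers Angptl2 (−0.611) and Apoe (−0.492) changed sign, and Lpl (−2.53), Gpihbp1 (−1.85), Lmf1 (−2.08), Vldlr (−1.56), Apoc1 (−1.66) and Cd36 (−2.32) passed 2-fold downwards. With luminal markers Lpl (−1.23) and Cd36 (−1.02) passed it and Angptl2 (0.647) and Apoe (0.810) no longer did. The causes were not tested. For the other lists 62 counts moved by over 1.5 times, among them macrophage markers (14 higher; 3 with luminal markers, 0 with adipocyte markers and 8 with a pseudocount of 5), fibroblast markers (9; 4 with luminal markers), luminal markers (4; 9 as deposited), lipase processing (2 lower; 13 with adipocyte markers) and milk proteins (10 lower; 5 after quantile normalization). Apoc2, at 1.00 before, came to 0.941 with quantile normalization, 0.797 with luminal and 0.355 with adipocyte markers. It came to 0.295 with a pseudocount of 5, 2.41 with a pseudocount of 0.1 and 0.992 without the filter. The log2 difference of its ratio to Lpl, Nfib-null minus wild type, came to 1.40 with 1 RPKM and 0.596 with 5 RPKM added, against 3.62. The number of reads behind Apoc2 in the wild type limits it. No paired analysis was possible because the columns are group means, and leaving out libraries could not be run for the same reason.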
